A study of Mus musculus with 32 samples.

Results

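Homologous recombination and Fanconi repair are described here through 40 mouse genes, taken by symbol from a table of 54281 gene identifiers measured by RNA sequencing in macrophages with and without induced loss of the exonuclease gene *Trex1*. Each of the 40 symbols matched 1 identifier, and all 40 were among the 15257 genes that passed the filter on low counts. The cells were bone marrow-derived macrophages (BMDMs), which are grown from marrow in medium containing a macrophage growth factor. *Trex1* FL/FL R26 CreERT2 cells carry 2 floxed *Trex1* alleles, and *Trex1* WT/FL R26 CreERT2 cells carry 1 floxed and 1 wild-type allele, so that the controls become heterozygous and are not wild type. Every group carried the CreERT2 recombinase at the R26 locus, which is active in nearly all cell types and is switched on by 4-hydroxytamoxifen (4-OHT). Cells were given 2 µg/ml 4-OHT for 22 h or were left untreated, and were collected on days 1, 2, 3 and 4 afterwards, with 2 libraries in each of the 16 groups of genotype, treatment and day. The labels name no animal, litter or culture behind a library, so the p-values measure only the spread between these libraries, which may be technical.

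The libraries held 35120505 to 63760884 estimated counts (median 44841991). In the 4-OHT-treated FL/FL cells *Trex1* had a count of 0 in both libraries of days 1, 3 and 4 and of 14 and 9 on day 2, against at least 758 in every other library. All 7 macrophage markers were found, with a summed level of 15000 to 47900 CPM (counts scaled to a common library total), whereas the markers of B cells, T and NK cells and erythroid cells summed to at most 0.173, 0.114 and 0.0338 CPM. Granulocyte and progenitor markers summed to 3.27 to 14.6 CPM, dendritic cell markers to at most 2.47 CPM and fibroblast markers to at most 2.27 CPM.

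Homologous recombination repairs a double-strand break by copying the intact sister chromatid. ATM and ATR sense the damage, the MRE11-RAD50-NBN complex trims the ends, and BRCA1-BARD1, PALB2 and BRCA2 prepare the ends for pairing with the intact copy. The Fanconi proteins recognise crosslinked DNA strands, attach ubiquitin to the FANCD2-FANCI pair, and hand the lesion to nucleases and to recombination. Because a sister chromatid exists only after DNA replication, many of these genes are transcribed mainly in dividing cells, and BMDMs can divide in culture.

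In untreated cells most of the 40 genes fell steeply between day 1 and day 3, and a few stayed level. The change was taken over the 8 untreated libraries of these days and was used to separate the genes, so it is given as a description with no test. A group of 26 genes fell by at least 1 log2 unit and is called proliferation-linked here, with a median change of -3.24. Another 8 were intermediate, between -1 and -0.5, with a median of -0.68. The 5 that stayed within 0.5 log2 units either way, *Atrip*, *Fance*, *Fancg*, *Mus81* and *Rbbp8*, are called constitutive, and *Xpa* was the single gene that rose past that limit, by 1.44. Near the limits, *Mre11a* (-1.12) fell just inside the proliferation-linked group and *Fancc* (-0.97) just outside it, *Slx4* (-0.52) was intermediate and *Fancg* (-0.47) constitutive, and *Fance* (0.41) was the constitutive gene nearest to *Xpa*. The names describe the time course and not a measured division rate.

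**Figure D1:**
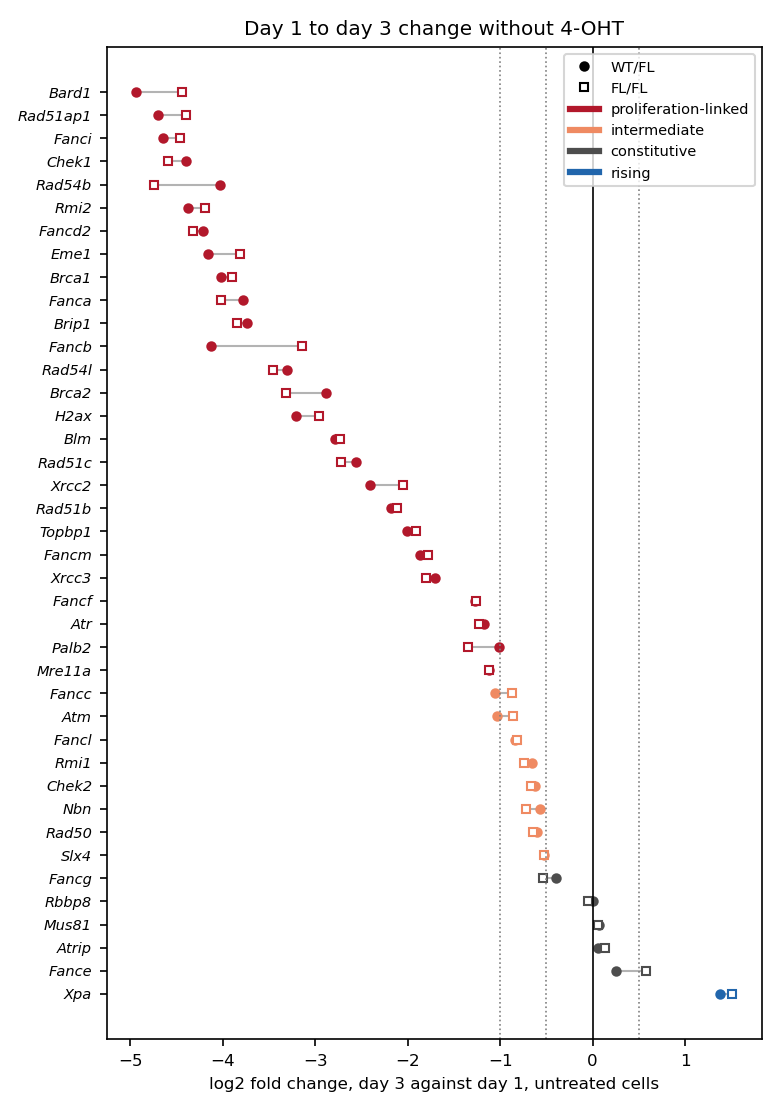
Log2 fold change from day 1 to day 3 in untreated cells (horizontal axis) for each of the 40 genes (rows), with filled circles for WT/FL and open squares for FL/FL cells, dotted lines at the limits of the classes and colours for the classes. The points of the 2 genotypes lie close together for most genes, *Bard1* stands at the low end (mean -4.69) and *Xpa* alone stands at the high end (mean 1.44).

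Levels are compared between genes here per kb of all annotated exons of a gene, a length that can exceed that of the transcript made, so the order depends on the annotation. In untreated WT/FL cells on day 1, *H2ax*, the histone variant that is phosphorylated around breaks, stood highest at 57.6 ± 1.04 CPM per kb (SD, n = 2), ahead of the replication checkpoint scaffold *Topbp1* at 14.9 ± 0.497 and the end-holding ATPase *Rad50* at 8.39 ± 0.92 CPM per kb. The strand exchange accessory gene *Rad51b* was lowest at 0.478 ± 0.0472 CPM per kb, within the spread of *Xpa* at 0.494 ± 0.0872. On day 3 *H2ax* was still first but at 6.24 ± 0.796 CPM per kb, within its spread of *Rad50* at 5.54 ± 0.351, which in turn did not stand apart from the Fanconi core subunit *Fance* at 5.41 ± 0.253 CPM per kb. *Rmi2*, a subunit of the complex that unlinks recombination intermediates, was then lowest at 0.0293 ± 0.00259 CPM per kb. Its counts went down to 3 in 1 library, and those of *Rad51b*, *Fancb*, *Rad54b* and *Fanci* to 10, 13, 15 and 17.

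The promoters of many proliferation-linked genes held a short DNA word that E2F transcription factors bind and that is common in genes of the replication phase. They are shown for the genes with the largest differences on day 4. The window of 250 bases before to 50 after the start of each gene came from RefSeq (GRCm38.p6) and was present for 32 of the 40 genes. It was searched on both strands for the word TTCCCGC, for the word TTGGCGC, for the word TTCGCGC and for the word TTGCCGC. At least 1 of these words stood in 17 of the 32 windows (53.1%), against 9.69% of 27025 promoters of all genes and 16.9% of 10600 promoters of genes tested here. By class it was 13 of 21 proliferation-linked, 3 of 6 intermediate and 1 of 4 constitutive genes, and *Xpa* had none. Each of these lines gives 30 bases of the gene's own strand, 5′ to 3′, with the word or its reverse complement in capitals.
Fanci: gcgtggagtagaGCGGGAAttttggaagga
Rad51ap1: gtctggttttcgGCGGGAAttgaaaccgcc
Chek1: cagcatgacgcaagcaggttttgGCGGGAA
Bard1: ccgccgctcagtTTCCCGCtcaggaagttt
Brca1: ggctagcgctagGCGCCAAgcggccggttt
Brca2: ttttaggccacaGCGGGAAacagacacaca
Atm: atagagccggaaGCGGGAAggcgtgcgtac
Fancg: tttcttttcagtTTCCCGCggaaccgtctc
The first 6 are the called proliferation-linked genes with the largest day 4 differences, among those with a window and a word, and *Atm* and *Fancg* are shown as intermediate and constitutive genes with the same word. In GRCm39 the *Fanci* bases are at chr7:79042092-79042121 (plus strand), those of *Rad51ap1* at chr6:126916521-126916550 (minus strand), of *Chek1* at chr9:36637905-36637934 (minus strand) and of *Brca1* at chr11:101442743-101442772 (minus strand), all in an annotated exon of the gene itself just after the start. Those of *Atm* at chr9:53447939-53447968 (minus strand) and *Fancg* at chr4:43010335-43010364 (minus strand) are exonic too. The *Bard1* bases at chr1:71142322-71142351 (minus strand) lie before the gene, and those of *Brca2* at chr5:150445906-150445935 (plus strand) lie before it in an exon of the neighbouring *Gm57319*.
A match is a description of letters and not of binding, and genes without a match, such as *Mus81*, *Atr*, *Rad54l*, *Fanca* and *Eme1*, lack only these letters in this window. The E2F word of *Fancf* overlaps an NF-Y word. The NF-Y word CCAAT stood in 65.6% of the 32 windows (39.2% of the promoters of tested genes), the CHR words TTTGAA and TTCGAA in 9.38% (14.5%), and the interferon response word GAAANNGAA in 15.6% (7.46%).

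The same fall was tested in the 4-OHT-treated libraries, which the separation did not use. A gene was called when its adjusted p over all 15257 genes was below 0.01. From day 1 to day 3, 35 of the 40 genes fell in 4-OHT-treated WT/FL cells, where 27.8% of all genes were called lower, and 35 fell in 4-OHT-treated FL/FL cells, where 27.0% were. *Xpa*, which verifies damage in nucleotide excision repair, rose by 1.59 in WT/FL and 1.30 in FL/FL cells. *Rbbp8*, the partner of MRE11 in end trimming, rose by 0.30 in FL/FL cells. The proliferation-linked class had a median change of -3.29 in WT/FL and -3.40 in FL/FL cells, and the constitutive class of -0.05 and -0.12. All 20 proliferation markers fell over the same days in both genotypes, with medians of -3.66 and -3.91.

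**Figure D2:**
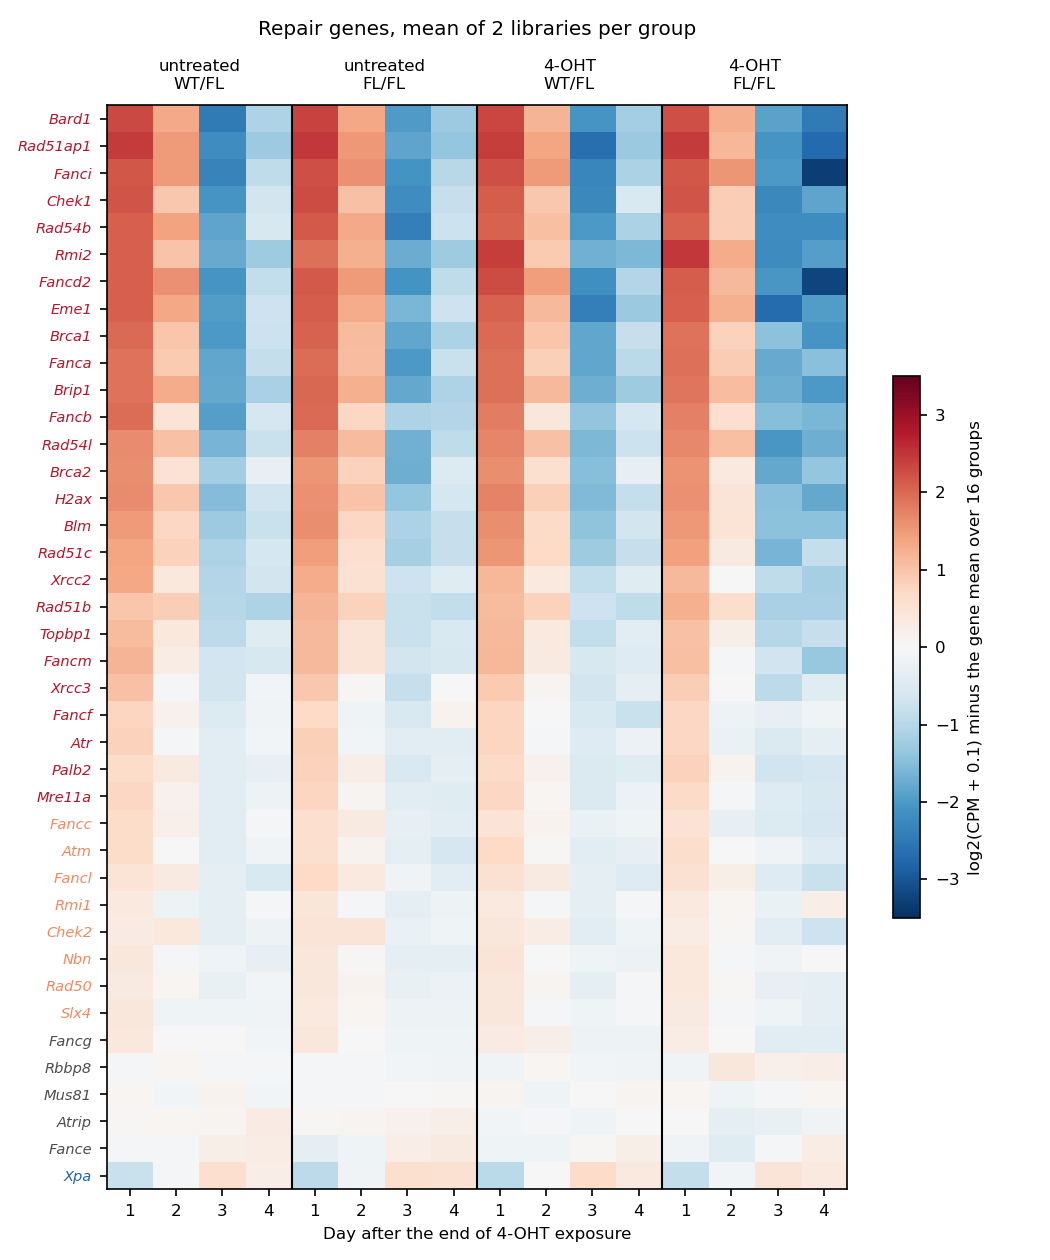
Colours give log2(CPM + 0.1) minus the gene's mean over the 16 groups, for the 40 genes (rows, with names coloured by class) in each group (columns, mean of 2 libraries, days 1 to 4 within genotype and treatment). The upper rows go from red on day 1 to blue on day 3 in all 4 blocks, and on day 4 they turn paler in 3 blocks, whereas many stay blue in 4-OHT-treated FL/FL cells, where *Fanci* and *Fancd2* are darkest.

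The main comparison of the design sets 4-OHT-treated FL/FL against 4-OHT-treated WT/FL cells on the same day and asks what loss of *Trex1* changes over time. Hardly any of the 40 genes passed the test on days 1 to 3, and on day 4 a large group of them was lower in FL/FL cells. On day 1 edgeR called 0 of 40 genes in either direction (0.0197% of all genes) and DESeq2 called 0. An unadjusted p below 0.05 was found for 0 of the 40 and 308 of all genes. On day 2 it called 1 gene lower, *H2ax* (2.48% of all genes), and DESeq2 called 2. On day 3 it called 1 gene lower, *Rad54l* (5.42% of all genes), and DESeq2 called 1. On day 4 it called 18 of the 40 genes lower, or 45.0%, against 11.7% of all genes, and 2 higher against 9.84% of all genes. For the 40 genes the day 4 median was -0.41 on the log2 scale, against -0.04 over all genes. The 3 that also passed a fold limit of 1.5 log2 units were *Fanci*, *Fancd2* and *Rad51ap1* (1.32% of all genes were lower past that limit). Both FL/FL libraries lay below both WT/FL libraries for 27 of the 40 genes, and 35.0% of all genes were ordered that way. Without replicate 1 of FL/FL, 12 genes were called on day 4.

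The lower genes were mostly proliferation-linked. On day 4, 16 of the 26 proliferation-linked genes were lower in FL/FL cells with a median log2 fold change of -0.80, 2 of the 8 intermediate genes were lower and 1 higher with a median of -0.28, and of the 5 constitutive genes none was lower and *Rbbp8* was higher, with a median of -0.03. *Xpa* did not pass the test, with a log2 fold change of 0.00. Across the 40 genes, the change from day 1 to day 3 in untreated cells and the day 4 difference after 4-OHT, which share no library, had a Pearson correlation of 0.78 and a Spearman correlation of 0.81. This is a description over genes, which are not independent and whose estimates are noisiest where counts are low.

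**Figure D3:**
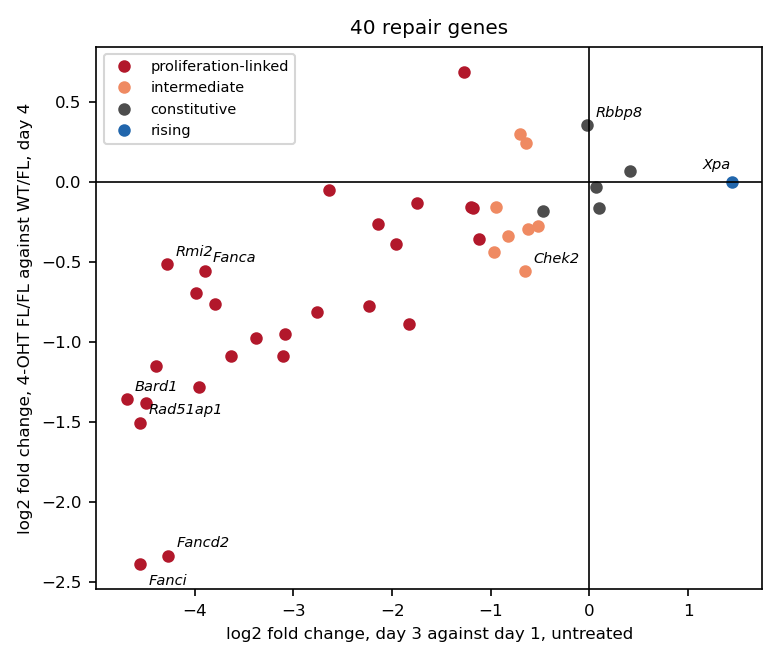
Each point is 1 of the 40 genes, placed by its log2 fold change from day 1 to day 3 in untreated cells (horizontal axis) and by its log2 fold change in 4-OHT-treated FL/FL against WT/FL cells on day 4 (vertical axis), coloured by class. Points further left tend to lie lower, with *Fanci* and *Fancd2* at the bottom and *Xpa* at 0 on the vertical axis.

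Markers of dividing cells moved with these genes. Of 20 proliferation markers, 16 were lower in FL/FL cells on day 4 and none was higher, with a median log2 fold change of -0.81. Their summed level was 644 to 676 CPM in WT/FL and 451 to 461 CPM in FL/FL cells on day 4, after 365 to 395 and 350 to 378 CPM on day 3. The 26 proliferation-linked repair genes summed to 198 to 200 CPM in WT/FL and 134 to 136 CPM in FL/FL cells on day 4, and to 135 to 142 and 131 to 136 CPM on day 3. The part of a changed share of dividing cells in the repair gene differences was not tested, and in RNA from whole cultures fewer expressing cells and less RNA per cell cannot be told apart.

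**Figure D4:**
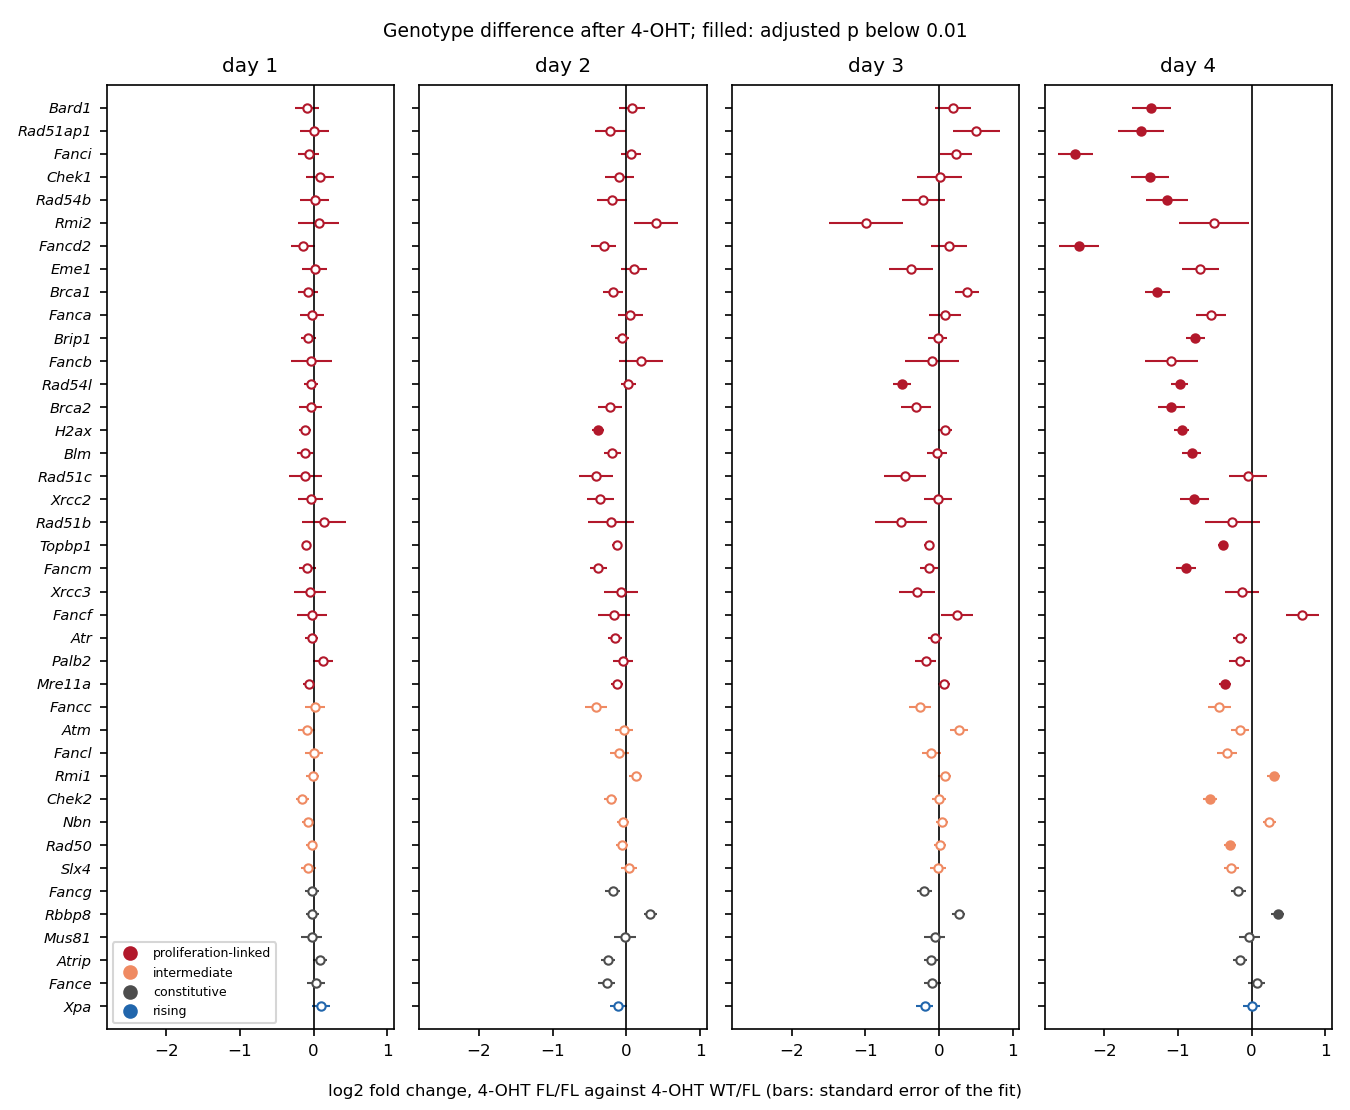
Log2 fold change in 4-OHT-treated FL/FL against WT/FL cells (horizontal axis, bars are the standard error of the fit) for the 40 genes (rows) on days 1 to 4 (panels), with filled points for an adjusted p below 0.01 and colours for the class. The points lie around 0 on day 1, *H2ax* is filled on day 2 and *Rad54l* on day 3, and 20 points are filled on day 4, of which 18 lie left of 0.

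Among the genes that sense damage and halt the cell cycle, the checkpoint kinases and *H2ax* were lower and the sensor kinases were not called. *Chek1*, the kinase that ATR activates, stood on day 4 at 3.38 and 2.31 CPM in WT/FL and at 1.33 and 0.848 CPM in FL/FL cells. On day 3 it had been at 0.533 and 1.03 CPM in WT/FL and at 0.877 and 0.701 CPM in FL/FL cells. The genotypes overlapped on day 3 and were apart on day 4, when the log2 fold change was -1.39 ± 0.26 (SE, n = 2 libraries a group, adjusted p = 1.37e-04).

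*Chek2*, the kinase that ATM activates, was at 19.4 and 22.0 CPM in WT/FL and at 14.2 and 13.9 CPM in FL/FL cells on day 4, a log2 fold change of -0.56 ± 0.09 (adjusted p = 3.74e-05). Its day 3 values of 16.9 and 18.6 CPM in WT/FL and 17.3 and 18.0 CPM in FL/FL cells overlapped. *H2ax* was already lower on day 2, at 42.5 and 46.4 CPM in WT/FL and 36.3 and 32.0 CPM in FL/FL cells (log2 fold change -0.38 ± 0.08, adjusted p = 0.00176). That call was lost without replicate 2 of WT/FL or without replicate 2 of FL/FL. On day 3 *H2ax* was not called, at 9.04 and 8.13 CPM in WT/FL and 9.15 and 9.08 CPM in FL/FL cells (log2 fold change 0.08, adjusted p = 0.625). On day 4 it was called again, at 14.5 and 13.4 CPM against 7.36 and 7.08 CPM, with the smallest adjusted p of the 40 genes after *Fanci* (-0.95 ± 0.10, adjusted p = 1.16e-08).

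*Atm*, the kinase that answers double-strand breaks, was at 19.0 and 19.5 CPM in WT/FL and 16.2 and 18.4 CPM in FL/FL cells on day 4 (log2 fold change -0.15 ± 0.12, adjusted p = 0.388). *Atr*, the kinase that answers stalled replication, was at 18.8 and 20.2 CPM against 17.4 and 17.7 CPM (-0.15 ± 0.09, adjusted p = 0.238). For both kinases each FL/FL library lay below each WT/FL library, by a margin that the test did not call. *Topbp1*, which activates ATR, was lower by a small and precise step (-0.39 ± 0.06, adjusted p = 1.65e-05).

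*Atrip*, the partner that brings ATR to single-stranded DNA, shares sequence with *Trex1*. All 1116 of the 31-base words in *Trex1* transcripts are also in *Atrip* transcripts, of whose 12367 words 10.9% are shared with some other gene, so that reads from that stretch can be given to either gene. *Atrip* stood on day 4 at 12.8 and 15.8 CPM in WT/FL and at 12.4 and 13.1 CPM in FL/FL cells, which overlapped (-0.16 ± 0.10, adjusted p = 0.223). Against untreated FL/FL cells, however, 4-OHT-treated FL/FL cells had less *Atrip* on days 2, 3 and 4, with differences of -0.40, -0.42 and -0.36 on the log2 scale (adjusted p = 0.00302, 0.00151 and 0.00487). In WT/FL cells the same comparison gave -0.13, -0.25 and -0.27 and no call. How much of the *Atrip* value comes from reads of the removed *Trex1* stretch was not tested.

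The genes that trim broken ends split in direction. *Mre11a*, the nuclease, and *Rad50* were lower on day 4 (-0.36 and -0.29, adjusted p = 6.7e-04 and 0.00541). *Nbn*, the third subunit of their complex, was at 15.4 and 15.4 CPM in WT/FL and 17.9 and 18.5 CPM in FL/FL cells, higher in both FL/FL libraries but not called (0.24 ± 0.08, adjusted p = 0.0287).

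*Rbbp8*, whose product CtIP starts end trimming with this complex, was at 35.1 and 36.9 CPM in WT/FL and 47.8 and 44.2 CPM in FL/FL cells (0.36 ± 0.09, adjusted p = 0.00333). On day 2 the genotypes also stood apart for *Rbbp8*, at 39.3 and 43.0 against 52.3 and 51.0 CPM, without passing the test (0.33, adjusted p = 0.0136). On that day both FL/FL libraries lay above both WT/FL libraries for 3849 of all 15257 genes. The day 4 calls of *Rad50* were lost whichever of the 4 libraries of that day was left out, those of *Rbbp8* in 3 of the 4 cases and those of *Mre11a* in 2.

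The genes that carry out and assist strand exchange held some of the larger differences. *Brca1*, the ubiquitin ligase that commits a break to recombination, was at 9.71 and 8.58 CPM in WT/FL and 4.35 and 3.15 CPM in FL/FL cells on day 4. On day 3 the order was the opposite, with 4.70 and 4.13 CPM in WT/FL and 6.75 and 4.96 CPM in FL/FL cells, although that difference was not called (0.38, adjusted p = 0.128). The day 4 log2 fold change was -1.28 ± 0.17 (adjusted p = 2.44e-06), a 2.43-fold lower level.

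*Bard1*, its obligate partner, was at 2.06 and 2.59 CPM in WT/FL and 0.664 and 1.15 CPM in FL/FL cells on day 4 (-1.36 ± 0.26, adjusted p = 2e-04). *Brca2*, which prepares trimmed ends for strand exchange, was at 4.69 and 5.55 CPM in WT/FL and 2.52 and 2.27 CPM in FL/FL cells (-1.09 ± 0.19, adjusted p = 3.73e-05). The groups did not overlap for either gene. *Brip1*, the helicase bound to BRCA1, was lower too (-0.77, adjusted p = 3.48e-05), while *Palb2*, the bridge between BRCA1 and BRCA2, was not called (-0.16, adjusted p = 0.454).

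*Rad51ap1*, which strengthens strand pairing, was at 2.75 and 2.59 CPM in WT/FL and 0.886 and 0.999 CPM in FL/FL cells on day 4 (-1.51 ± 0.31, adjusted p = 8.06e-04). *Rad54l*, the motor protein that helps in the search for the matching strand, was at 9.54 and 8.58 CPM against 4.35 and 4.87 CPM (-0.98 ± 0.12, adjusted p = 2.85e-07). *Rad54l* was also lower on day 3, at 5.04 and 5.18 CPM in WT/FL and 3.89 and 3.40 CPM in FL/FL cells (-0.50 ± 0.13, adjusted p = 0.00492). That day 3 call was lost without any 1 of 3 libraries, both WT/FL replicates and replicate 2 of FL/FL. Its close relative *Rad54b* was lower on day 4 (-1.15, adjusted p = 0.00272), but lost the call without any 1 library of that day.

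Among the accessory genes *Rad51b*, *Rad51c*, *Xrcc2* and *Xrcc3*, *Xrcc2* was lower on day 4 (-0.78, adjusted p = 0.00278) and *Rad51b*, *Rad51c* and *Xrcc3* were not called (-0.26, -0.05 and -0.13). *Xrcc2* lost the call without replicate 1 of either genotype, and *Bard1* and *Rad51ap1* lost it without replicate 1 of FL/FL.

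Of the complex that unlinks joined DNA molecules, the helicase *Blm* was lower and a partner higher. *Blm* was at 6.89 and 7.35 CPM in WT/FL and 3.71 and 4.39 CPM in FL/FL cells on day 4 (-0.81 ± 0.13, adjusted p = 1.46e-05), after overlapping values of 4.57 and 3.77 against 3.77 and 4.38 CPM on day 3. *Rmi1*, which steadies the complex, was at 28.6 and 28.9 CPM in WT/FL and 34.3 and 36.7 CPM in FL/FL cells (0.30 ± 0.09, adjusted p = 0.00926), and this call near the limit was lost without any 1 library of that day. *Rmi2*, at 0.121 to 0.281 CPM in these libraries, was not called (-0.51 ± 0.48, adjusted p = 0.486).

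Among the genes with a Fanc symbol, *Fanci*, *Fancd2* and *Fancm* were called lower. *Fanci* (chr7:79041677-79100027, plus strand, GRCm39) and *Fancd2* (chr6:113508412-113573982, plus strand), the pair that receives ubiquitin, had the largest decreases of the 40. *Fanci* was at 2.57 and 2.79 CPM in WT/FL and 0.471 and 0.545 CPM in FL/FL cells on day 4, a 5.25-fold lower level (-2.39 ± 0.24, adjusted p = 8.31e-09). On day 3 it had been at 1.37 and 0.916 CPM in WT/FL and 1.70 and 1.11 CPM in FL/FL cells. It thus went up in WT/FL and down in FL/FL cells from overlapping values.

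*Fancd2* followed the same course, from 1.18 and 1.97 CPM in WT/FL and 1.70 and 1.73 CPM in FL/FL cells on day 3 to 4.03 and 2.96 CPM and 0.664 and 0.726 CPM on day 4 (-2.34 ± 0.27, adjusted p = 3.15e-07). Of the core complex that attaches the ubiquitin, *Fanca* was at 4.29 and 3.39 CPM in WT/FL and 2.27 and 3.00 CPM in FL/FL cells, apart but not called (-0.56 ± 0.21, adjusted p = 0.0431). The DNA translocase *Fancm*, which docks the core on DNA, was lower (-0.89 ± 0.13, adjusted p = 5.13e-06). The other core genes *Fancb*, *Fancc*, *Fance*, *Fancf*, *Fancg* and *Fancl* were not called, with log2 fold changes from -1.09 for *Fancb* to 0.69 for *Fancf* (adjusted p = 0.0233 and 0.0186). Without replicate 2 of FL/FL, *Fancb* was called at -1.87.

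Of the nucleases that cut joined or crosslinked DNA, none was called. *Mus81* (chr19:5532373-5538448, minus strand), the catalytic subunit, was at 12.5 and 13.1 CPM in WT/FL and 12.9 and 12.1 CPM in FL/FL cells on day 4 (-0.03 ± 0.14, adjusted p = 0.903). Over all 32 libraries it stayed between 9.67 and 14.4 CPM. Its partner *Eme1* had gone from 19.8 and 19.3 CPM in WT/FL on day 1 to 0.704 and 0.871 CPM on day 3, so that the subunits of this pair had different time courses. On day 4 *Eme1* was at 1.87 and 1.73 CPM in WT/FL and 1.08 and 1.15 CPM in FL/FL cells (-0.70 ± 0.25, adjusted p = 0.0345). The scaffold *Slx4* was not called (-0.27, adjusted p = 0.0517).

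*Xpa* (chr4:46154887-46196600, minus strand), the damage verification factor of nucleotide excision repair, had the largest rise of the 40 genes from day 1 to day 3 and was not called between the genotypes on day 4. It was at 5.53 and 5.17 CPM in WT/FL and 5.36 and 6.11 CPM in FL/FL cells on day 1. On day 3 it was at 15.2 and 17.1 CPM in WT/FL and 14.2 and 14.1 CPM in FL/FL cells, and on day 4 at 13.4 and 13.0 against 12.8 and 13.6 CPM (0.00 ± 0.12, adjusted p = 1).

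**Figure D5:**
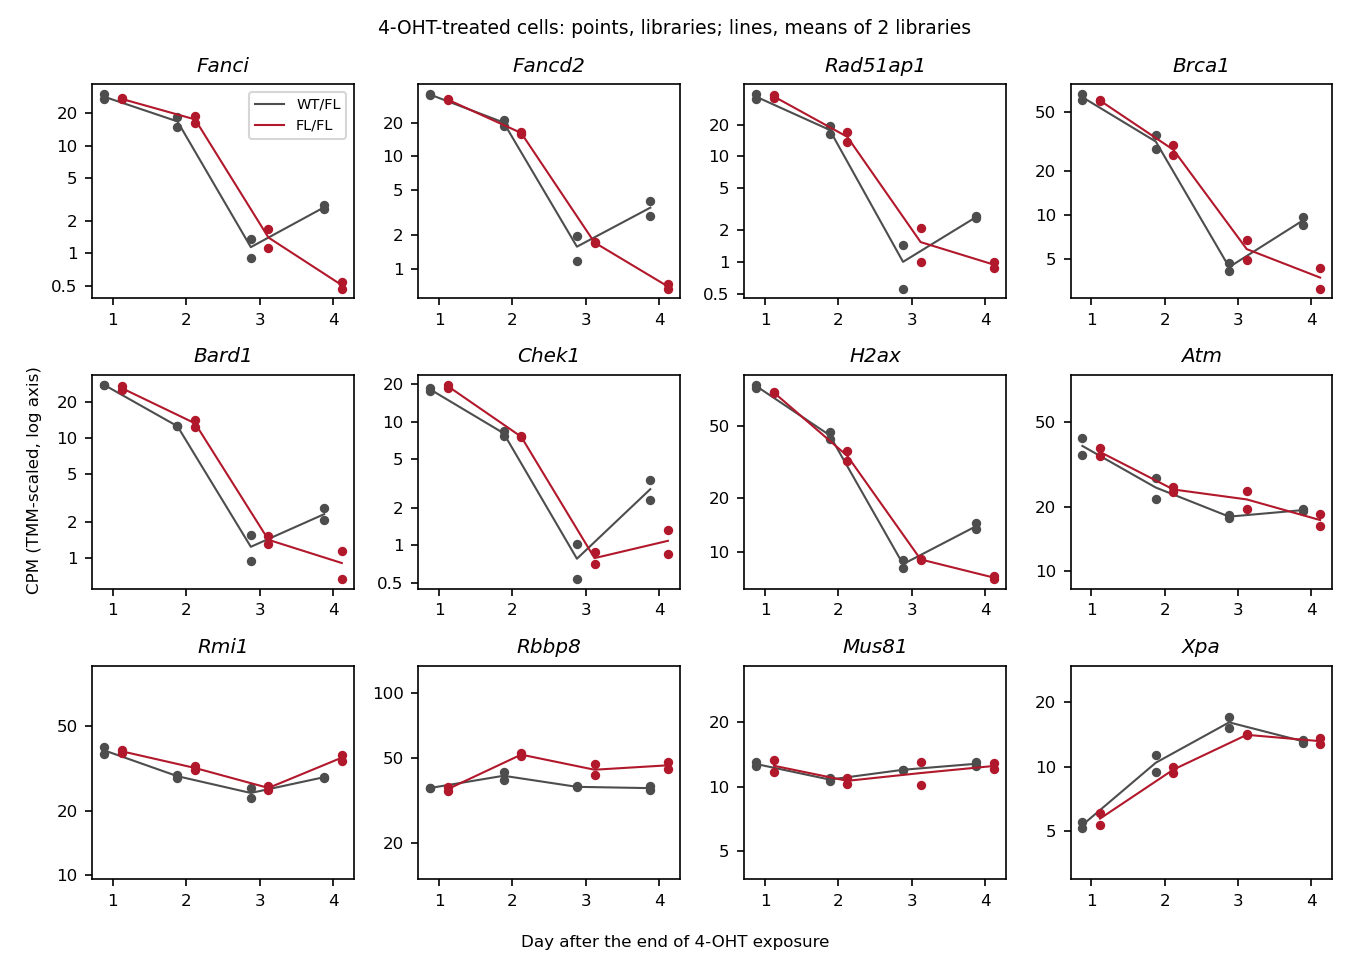
Level in CPM (vertical axes, log scale) of 12 of the genes in 4-OHT-treated WT/FL (grey) and FL/FL (red) cells on days 1 to 4 (horizontal axes), with 1 point for each library and lines through the means of 2 libraries. For *Fanci*, *Fancd2*, *Rad51ap1*, *Brca1*, *Bard1* and *H2ax* the grey line turns up from day 3 to day 4 and the red line goes on down, whereas *Mus81* stays level and *Xpa* climbs to day 3 in both genotypes. Of these falls of the red line from day 3 to day 4, the test called only those of *Fanci* and *Fancd2*.

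Between day 3 and day 4 many of these genes rose in control cells, and few passed the test in FL/FL cells. From day 3 to day 4, 15 of the 40 genes rose in 4-OHT-treated WT/FL cells (6.23% of all genes), all of them proliferation-linked, and the median of that class was 0.73. Without replicate 1 of WT/FL on day 4, 8 genes were called. In 4-OHT-treated FL/FL cells 3 genes fell over the same day (5.70% of all genes), *Fanci* by 1.42, *Fancd2* by 1.30 and *Fancm* by 0.65 on the log2 scale, *Rmi1* rose by 0.47, and the median of the proliferation-linked class was 0.03. In these FL/FL cells 2 genes were called without replicate 2 of day 3, and 1 without either replicate of day 4. The change of the genotype difference between the days was tested directly, and 10 of the 40 genes were called lower (2.03% of all genes). They were *Fanci* (-2.63 ± 0.33), *Fancd2* (-2.48 ± 0.37), *Rad51ap1* (-2.01 ± 0.45), *Brca1* (-1.66 ± 0.24), *Bard1* (-1.55 ± 0.36), *H2ax* (-1.03 ± 0.14), *Blm* (-0.79 ± 0.18), *Fancm* (-0.75 ± 0.18), *Brip1* (-0.75 ± 0.18) and *Chek2* (-0.56 ± 0.13). Leaving out 1 of the 8 libraries left 4 to 7 calls, and 7 of the 8 fits moved the count by over 1.5 times (all but the fit without replicate 1 of WT/FL on day 3). *Fanci*, *Fancd2*, *Brca1* and *H2ax* were called in all 8 fits.

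Without 4-OHT the genotypes gave no call in these genes. Untreated FL/FL against untreated WT/FL cells gave 0 edgeR calls among the 40 genes on any of the 4 days (0.0655% of all genes were called on at least 1). Of the 40, 11 had an unadjusted p below 0.05 on at least 1 day and DESeq2 called 1. On day 4, 6 of the 40 genes and 2414 of all 15257 had an unadjusted p below 0.05. On days 1, 2 and 3 these counts were 1, 1 and 3 of the 40 genes and 1129, 588 and 468 of all genes. DESeq2 called 261 of all genes on day 4 and 1, 6 and 6 on days 1, 2 and 3. Among the 40 genes the lowest adjusted p on day 4 was that of *Atm* (-0.48, adjusted p = 0.0417). In WT/FL cells, 4-OHT against no treatment also gave 0 calls with edgeR on any day (0.433% of all genes). Of the 40, 5 had an unadjusted p below 0.05 on at least 1 day and DESeq2 called 0. On days 1 to 4 such a p was found for 0, 1, 1 and 4 of the 40 genes and for 378, 530, 1281 and 1080 of all genes. The number of all genes with an unadjusted p below 0.05 on at least 1 day was not counted for either comparison. The difference between genotypes with 4-OHT was set against that without it on day 4, and 9 genes were called lower (5.24% of all genes). These were *Fanci* (-2.34), *Fancd2* (-2.29), *H2ax* (-1.01), *Brca1* (-0.91), *Fancm* (-0.87), *Rad54l* (-0.85), *Brip1* (-0.82), *Blm* (-0.78) and *Chek2* (-0.60).

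The second comparison for *Trex1*-deleted cells, 4-OHT-treated against untreated FL/FL cells, uses the same 4-OHT-treated FL/FL libraries as the first. It called 6 of the 40 genes lower on day 2 (3.59% of all genes), 3 on day 3 (7.57%) and 19 on day 4 (11.2%). It called 1 gene higher on day 2, *Rbbp8* (0.46, adjusted p = 3.99e-04, 7.49% of all genes), 0 on day 3 and 3 on day 4 (10.2%). On day 4 *Fanci* was at 2.94 and 3.02 CPM in untreated FL/FL cells, against the 0.471 and 0.545 CPM given above, a log2 fold change of -2.55 ± 0.24 (adjusted p = 2.18e-09). *Fancd2* was at 3.38 and 4.36 CPM without 4-OHT (-2.46, adjusted p = 1.38e-07), and *H2ax* at 16.7 and 15.7 CPM (-1.17, adjusted p = 2.15e-10). The 3 higher genes of day 4 were *Rmi1* (0.42), *Rbbp8* (0.35) and *Nbn* (0.35).

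Other repair genes were read in the same comparison of 4-OHT-treated genotypes on day 4. Of 57 further recombination and Fanconi genes, 13 were lower and 5 higher, with a median of -0.05, where 11.7% of all genes were lower and 9.84% higher with a median of -0.04. *Hrob*, which recruits a repair helicase, and *Clspn*, the adaptor that lets ATR activate CHK1, were lower (-2.33 and -2.09), and *Timeless*, a replication fork protector, was higher (1.05, adjusted p = 2.41e-07). Of 18 nucleotide excision repair genes besides *Xpa*, only *Ddb1*, a subunit of the damage-binding ubiquitin ligase, was called (-0.34), and of 8 end joining genes only *Prkdc*, the DNA-dependent protein kinase (-0.43).

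Some of the 40 genes share sequence with others and their values are less certain. The share of 31-base transcript words also found in another gene was 51.9% for *Fancl* (mostly *Vrk2*), 42.1% for *Eme1* (*Lrrc59*), 39.9% for *Rad54b* (*Fsbp*), 38.4% for *Xrcc3* (*Klc1*), 32.6% for *Rmi1*, 29.1% for *Fanca* (*Zfp276*) and 27.2% for *Fancf* (*Gas2*). It was 23.6% for *H2ax*, 22.2% for *Rad54l*, 17.8% for *Fancd2*, 16.5% for *Brca2*, 16.1% for *Fanci* and 13.2% for *Xpa*, and 0.0219% for *Brca1*.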

How the data were processed

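RNA was sequenced from 32 libraries of BMDMs. Per the labels and the study's methods, the authors separated the libraries with Je, ran FastQC, and used Salmon and tximport to obtain gene values on GRCm39. The authors deposited 1 table of expected counts (estimated counts), stored as whole numbers. The library totals of 35120505 to 63760884 and the count of each gene limit the precision.

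Groups came from the labels. All 32 libraries were fitted together, with 16 group means (edgeR 4.0.16 quasi-likelihood test, TMM scaling, R 4.3.3, 16 residual degrees of freedom). Genes passed filterByExpr at a minimum count of 10, which kept 15257. P-values were adjusted over these by Benjamini-Hochberg, and a gene was called below 0.01. CPM are scaled by TMM, and CPM per kb divides by the summed length of the gene's annotated exons. Alternatives were other scalings, no filter, a limit of 0.05, the study's added fold limit, DESeq2 1.42.0, the 16 4-OHT libraries alone, the contrast with untreated cells each library left out and, added after the data were seen, a block by library number.

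On simulated counts for the day 4 comparison (15078 genes), 88 of 100 genes changed by 1 log2 unit and 96 of 100 changed by 2 were recovered with 1 false call. The changed genes were drawn only from those above a limit on the expected count. These rates therefore do not cover genes with low counts on day 4, such as *Rmi2* and *Rad51b*. Values in every library were given for 19 genes chosen by role, the 3 largest called decreases and the called increases on day 4. The 40 genes and the lists were chosen with earlier results of these data known. Promoter windows came from a RefSeq table and were placed in GRCm39 by exact match, and shared words were counted in GENCODE vM39 transcripts. The values of 1 gene on the lists are not reported here.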

Additional observations from a re-analysis of the deposited data

Results flagged for a closer look

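The genotype difference after 4-OHT changed between day 3 and day 4 for 10 of the 40 genes, by a test of the change itself. All 10 were called lower, where 2.03% of all genes were. Some of these calls were lost when 1 library was left out, as given above. On the log2 scale the change was -2.63 for *Fanci* and -2.48 for *Fancd2*, the ubiquitinated Fanconi pair. It was -2.01 for *Rad51ap1*, -1.66 for *Brca1* and -1.55 for *Bard1*, which act in strand exchange and its preparation. It was -1.03 for *H2ax*, -0.79 for *Blm*, -0.75 for *Fancm*, -0.75 for *Brip1* and -0.56 for *Chek2*. In the same test 9 of the 20 proliferation markers were called lower.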

How the results depend on the processing

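Of the 40 genes, 20 were called between the 4-OHT-treated genotypes on day 4, and 20, 20, 22 and 21 were with 2 other scalings, with no filter and with DESeq2. Of all genes, 3284 were called on day 4 in the main fit and 3224 and 3288 with the other scalings. Without the filter and with DESeq2 these were 3493 and 3472. With DESeq2, 2 of the 40 genes were called on day 2 and 1 between untreated genotypes. Without the filter these counts were also 2 and 1. Of all genes, 1246 were called on day 2 in the main fit, 1442 with DESeq2 and 1512 without the filter. Between untreated genotypes on day 4 they numbered 10, 261 and 372. A limit of 0.05 gave 3 genes on day 2, 2 on day 3, 1 between untreated genotypes and 10 for FL/FL cells from day 3 to day 4. How many of all genes passed that looser limit was not counted, so these counts cannot be set against a background. With the 16 4-OHT libraries alone, 2 genes were called on day 2 and 2 on day 3 (1292 and 1975 of all genes). Set against the untreated difference, 0 were called on days 2 and 3 and 9 on day 4 (616, 710 and 1585 of all genes). With the added fold limit, 0 genes were called on days 2 and 3, 3 on day 4 and 5 for the change from day 3 to day 4. It gave 3 for 4-OHT against untreated FL/FL cells and 23 for day 1 to 3 in either 4-OHT-treated genotype. From day 3 to day 4 it gave 1 for WT/FL cells and 0 for FL/FL cells. Of all genes, 13 were lower and 76 higher past that limit on day 2, 59 and 74 on day 3, and 202 and 252 on day 4. For the change these were 107 and 32, and for 4-OHT against untreated FL/FL cells on day 4 they were 250 and 273. From day 1 to 3 they were 1328 and 1228 in WT/FL and 1323 and 1153 in FL/FL cells. From day 3 to 4 they were 78 and 54, and 88 and 27.

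Leaving out 1 library gave 0 to 0 calls on day 1, 0 to 2 on day 2, 0 to 1 on day 3 and 12 to 18 on day 4. It gave 4 to 7 for the change from day 3 to day 4, 0 to 1 between untreated genotypes, 0 to 0 for 4-OHT in WT/FL and 16 to 24 in FL/FL cells, 35 to 36 and 36 to 36 for day 1 to 3 in WT/FL and FL/FL cells, and 8 to 12 and 1 to 3 for day 3 to 4. The proliferation-linked class held 26 to 27 genes. The fits with a lone library assume that it varies like the other groups. The 12 genes lower on day 4 in each of these fits were *Fanci*, *Fancd2*, *Chek1*, *Brca1*, *Brip1*, *Rad54l*, *Brca2*, *H2ax*, *Blm*, *Topbp1*, *Fancm* and *Chek2*. No gene called between the 4-OHT-treated genotypes changed direction with another scaling, with a library left out or with the block described next, while some that were not called did. The cause of each moved count was not tested beyond what its setting changes. Low counts of *Rmi2*, *Rad51b*, *Fancb* and *Rad54b* limit what can be resolved for them.

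The labels carry no replicate numbers, but the library numbers in the titles lie 16 apart in each group, and a block by the lower and higher number was added after the data were seen. The differences between the 2 libraries of a group were correlated over all tested genes. The correlations were 0.0242 to 0.118 between WT/FL groups (median 0.071) and -0.00775 to 0.144 between FL/FL groups (median 0.063). Between genotypes they were -0.0349 to 0.0809 (median 0.0293). Values this low over all genes cannot exclude that the numbers pair the libraries within a genotype. The main fit used no block, and whether the libraries are paired stays unknown. With a replicate block shared by the genotypes, 21 genes were called on day 4, 2 on day 2 and 7 for FL/FL cells from day 3 to day 4. With the block within each genotype these were 19, 2 and 8, with 1 between untreated genotypes. Of all genes, the shared block called 3640, 1474 and 1716 in these comparisons. The block within each genotype called 3598, 1501 and 1822, and 220 between untreated genotypes on day 4. The main fit called 3284, 1246, 1424 and 10.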
